A study of Mus musculus with 20 samples.

Results

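The genes described here were 10 heat shock protein and cochaperone genes chosen by name from the 31053 genes of the count matrices: Hspa1a, Hspa1b, Hsph1, Dnajb1, Hsp90aa1, Hspa8, Hsp90ab1, Hspd1, Hspe1 and Ppid. All 10 passed the filter on low counts in every comparison below. They were measured by 3′ single-cell RNA sequencing (scRNA-seq) in 20 libraries, made without sorting for a cell type, of 13 mice labelled C57BL/6N (the study's methods give C57BL/6J for the Eµ-TCL1 line), with libraries identified here by group and number. Spleens were taken from 5 mice with PRMT5 alone (Eµ-PRMT5), 4 with TCL1 alone (Eµ-TCL1) and 4 with both (Eµ-PRMT5/TCL1), and lymph nodes (sub-mandibular) from 3 of the Eµ-TCL1 and all 4 of the Eµ-PRMT5/TCL1 mice. Eµ-PRMT5 mice carried a human PRMT5 cDNA, which encodes an arginine methyltransferase, Eµ-TCL1 mice carried the human TCL1 oncogene, and Eµ-PRMT5/TCL1 mice carried both. Each transgene was driven in B cells by an immunoglobulin heavy chain promoter and the Eµ enhancer, so the T and myeloid cells of these mice were not the cells in which the transgene was directed. Mice without a transgene were not analysed here, tissue was taken when mice met criteria for euthanasia, and the ages were not given in the labels. In its survival cohorts the study reports the longest median survival for Eµ-PRMT5 mice and the shortest for Eµ-PRMT5/TCL1 mice. Age at sampling may therefore differ with genotype, and it cannot be told apart from genotype here. The study bred Eµ-PRMT5 mice from more than 1 founder as separate lines, and the line of each mouse is not given here. Sex, read from Xist and Y-linked transcripts, was uneven across the groups: 4 of the 5 Eµ-PRMT5 spleens, 1 of the 4 Eµ-TCL1 spleens and 3 of the 4 Eµ-PRMT5/TCL1 spleens were from females.

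Heat shock proteins are molecular chaperones: they bind unfolded or partly folded proteins and let them fold, be held or be degraded. Cells keep a constitutive set of them at all times, and under heat, oxidants or other proteotoxic stress heat shock factor 1 binds heat shock elements, which are alternating GAA and TTC units, and drives an inducible set. In dissociated tissue the inducible genes, like the immediate early genes such as Fos, are also known to respond to handling. The 10 genes were therefore read in 2 sets of 5. The inducible set held Hspa1a and Hspa1b (inducible HSP70), Hsph1 (HSP110, the nucleotide exchange factor of HSP70), Dnajb1 (the J protein HSP40, which delivers clients to HSP70) and Hsp90aa1 (the stress-responsive cytosolic HSP90). The constitutive set held Hspa8 (HSC70), Hsp90ab1 (the steady cytosolic HSP90), Hspd1 and Hspe1 (the mitochondrial chaperonin HSP60 and its lid HSP10) and Ppid (cyclophilin 40, an HSP90 cochaperone).

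Because heat shock genes are known to share regulation through the heat shock element, the bases of RefSeq promoters (250 before to 50 after the start, GRCm38.p6) that carry one are shown for 5 members, with the matched units in capitals. Of the 10 genes, 6 had an entry, namely Hspa1a, Hspa1b, Hsph1, Dnajb1, Hspd1 and Hspe1. Both strands were searched for the 3-unit element GAANNTTCNNGAA and for the 2-unit forms GAANNTTC and TTCNNGAA, which lie within it and can overlap each other.
Hspa1a, chr17:34972242-34972271, minus strand: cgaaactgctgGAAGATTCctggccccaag
Hspa1b, chr17:34959324-34959353, minus strand: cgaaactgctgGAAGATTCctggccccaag
Hspd1, chr1:55088055-55088084, minus strand: gcggggccTTCCGGAAGGTTCtagaacgga
Hspe1, chr1:55088051-55088080, plus strand: acggtccgTTCTAGAACCTTCcggaaggcc
Hsph1, chr5:149636279-149636308, minus strand: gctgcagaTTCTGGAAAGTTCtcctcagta
The Hspa1a and Hspa1b windows were the same 30 bases, with the 2-unit form at -104 to -97 from each start, and the 2 whole promoters were identical at 296 of 300 bases (98.7%). Their transcripts are known as near copies too, although they were not compared here. The division of reads between Hspa1a and Hspa1b is therefore uncertain and the 2 are best read together. The Hspd1 and Hspe1 windows were overlapping stretches of the region where these 2 genes start and are transcribed away from each other, read from opposite strands, and the Hspe1 promoter and 1 of the 2 Hspd1 entries held 2 overlapping matches to the 3-unit element, the first of which is in capitals. Hsph1 held 1 match, within the transcribed part, at 15 to 27 bases after one of its 2 starts and 36 to 48 bases after the other. Dnajb1 held none of these letters in its 2 windows. The 3-unit element occurred in 198 of all 32851 promoters (0.603%), against 7.86% for GAANNTTC and 8.52% for TTCNNGAA. A match is a string of letters and was not tested as a site. In the annotation used (GRCm38), Hspa1a spans 34969190 to 34972156 and Hspa1b 34956436 to 34959238 on the minus strand of chromosome 17, Hspd1 spans 55077835 to 55088243 and Hspe1 55088132 to 55091307 on chromosome 1, and Hsph1 spans 149614287 to 149636376 on chromosome 5.

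B, T and myeloid cells were called from raw counts of unique molecular identifiers (UMIs), which count each captured RNA molecule once, with 4 B, 3 T and 5 myeloid marker genes, and counts were then summed over the cells of a class in a library. A level is given as CPM, the count scaled to a total of 1000000 UMIs, of that class and library. Such a sum cannot tell more cells that use a gene from more RNA per cell. Libraries held 9348094 to 72440894 UMIs and 689 to 7866 kept cells with a median of 3602.5 to 14531 UMIs, and the B cell sums of the 20 libraries rested on 312 to 5466 cells. Check markers that were not used for calling (Pax5, Ebf1, Cd22, Blk and Bank1) summed to 134 to 1077 CPM in B cells and to 1.80 to 15.8 CPM in T cells of the 13 spleens. The 7 T cell check markers summed to 24.8 to 225 CPM in B cells, which was 1.19% to 11.7% of the T cell level of the same spleen. Some libraries stood apart. In Eµ-PRMT5 spleen 4 the B cell check markers were lowest, at 134 CPM, and its T cell sum rested on 47 cells. Of its B cells 81.2% had a UMI of any of 6 cell cycle genes. In Eµ-PRMT5 spleens 1, 2, 3 and 5 this was 4.77%, 8.01%, 4.01% and 11.1%. Its B cells were also the deepest, with a median of 17649.5 UMIs, which raises such a share. Eµ-PRMT5 spleen 2 was highest of 13 spleens for the summed inducible set in B and in T cells and second in myeloid cells. In Eµ-PRMT5/TCL1 spleen 4, 76 ribosomal protein genes took 10.6% of B cell UMIs against 19.7% to 32.3% in the other spleens, and transcripts under 1000 bases had a median deviation of -1.05 on the log2 scale from the middle of the 13 spleens. Of the members, Hspe1 is the one with so short a transcript, at 774 bases.

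By CPM, Hsp90ab1, Hspa8 and Hsp90aa1 (median 771 CPM) were the most abundant members in B cells of the 13 spleens, ahead of Hspe1 (361 CPM). Per kilobase of the longest coding transcript Hspe1 passed Hsp90aa1. On that scale Hsp90ab1 led with a median of 1314 CPM per kilobase, followed by Hspa8 at 761, Hspe1 at 466.2 and Hsp90aa1 at 235. Hspd1 had a median of 82.7, Dnajb1 of 40.7, Hspa1a of 22.3, Ppid of 18.5, Hsph1 of 16.8 and Hspa1b of 4.21 CPM per kilobase. The neighbours in this order overlapped over the spleens. The spread over the spleens also differed between members: Hspa1a ran from 5.18 to 379 CPM per kilobase and Hspa1b from 0.716 to 85.8, while Hspa8 ran from 444 to 1601 and Hsp90ab1 from 915 to 2748. These reads come from the 3′ end of each RNA, for which dividing by length is a convention and not a correction.

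The first question was whether B cells with the PRMT5 transgene alone differed from B cells with the TCL1 transgene alone. The study reports cells like those of chronic lymphocytic leukemia in spleens of both models, as part of the B cells. Such cells were not told apart from other B cells here, and the part of this mix was not tested. B cells were 45.05%, 33.3%, 40.3%, 50.2% and 10.2% of kept cells in Eµ-PRMT5 spleens 1 to 5. They were 36.5%, 83.9%, 42.8% and 71.8% in Eµ-TCL1 spleens 1 to 4. In spleen B cells all 10 members had a higher fitted level in Eµ-PRMT5 than in Eµ-TCL1 mice, with a median log2 fold change of 1.24 against 0.02 over all 12162 genes tested, and the inducible set lay further up (median 2.12, range 1.29 to 3.42) than the constitutive set (median 0.55, range 0.40 to 1.19). No member passed an adjusted p of 0.05 in edgeR's quasi-likelihood test, and only 1 gene of all did (0.00822%). An unadjusted p under 0.05 in the higher direction was seen for 7 members, where 9.87% of all genes had one. By DESeq2 those 7 members were called higher, against 3.41% of all genes. The number of calls therefore rested on the tool.

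Hspa1a was measured at 325, 1126, 296, 58.6 and 95.2 CPM in B cells of Eµ-PRMT5 spleens 1 to 5, at 17.4, 66.0, 32.2 and 34.6 CPM in Eµ-TCL1 spleens 1 to 4, and at 15.4, 70.8, 26.6 and 186 CPM in Eµ-PRMT5/TCL1 spleens 1 to 4. Eµ-PRMT5 spleens 1, 2 and 3 were above every other spleen, spleen 2 most of all, and spleen 4 fell inside the Eµ-TCL1 range, so the groups overlapped. The log2 fold change of Eµ-PRMT5 over Eµ-TCL1 was 3.26 ± 0.88 (SE; adjusted p = 0.110, edgeR; 0.00131 by DESeq2).

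Its near copy Hspa1b was measured at 44.1, 240.5, 49.3, 14.8 and 9.56 CPM in the Eµ-PRMT5 spleens, at 2.63, 11.8, 4.98 and 5.80 CPM in the Eµ-TCL1 spleens and at 2.01, 36.7, 5.70 and 18 CPM in the Eµ-PRMT5/TCL1 spleens. Spleen 5, at 9.56 CPM, was the one Eµ-PRMT5 value under the highest Eµ-TCL1 value. The log2 fold change was 3.42 ± 1.01 (SE; adjusted p = 0.131, edgeR). The size of both rested on 1 library: without Eµ-PRMT5 spleen 2 the log2 fold change was 2.31 for Hspa1a and 2.18 for Hspa1b, while leaving out any other single spleen gave 3.04 to 3.63 and 3.18 to 3.86.

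Hsph1, the exchange factor of HSP70, was high in the same 3 Eµ-PRMT5 spleens. It was measured at 182, 373, 177, 36.6 and 86.6 CPM in Eµ-PRMT5, at 19.03, 63.8, 39.8 and 26.7 CPM in Eµ-TCL1 and at 21.8, 102, 32.3 and 109 CPM in Eµ-PRMT5/TCL1 spleens. Again spleen 4 alone of the Eµ-PRMT5 group lay within the Eµ-TCL1 range, and the log2 fold change was 2.12 ± 0.62 (SE; adjusted p = 0.129, edgeR).

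Dnajb1, the J protein partner of HSP70, was measured at 345, 432, 277, 117 and 217 CPM in Eµ-PRMT5, at 63.7, 157, 122 and 82.1 CPM in Eµ-TCL1 and at 71.4, 93.8, 85.9 and 278 CPM in Eµ-PRMT5/TCL1 spleens. All Eµ-PRMT5 values but the 117 CPM of spleen 4 exceeded all 4 Eµ-TCL1 values. Its log2 fold change was 1.33 ± 0.40 (SE; adjusted p = 0.135, edgeR).

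For 3 members the Eµ-PRMT5 and Eµ-TCL1 spleens did not overlap in B cells, against 2.66% of all genes that were higher without overlap. Hsp90aa1, the stress-responsive HSP90, was measured at 1079, 1271, 776, 812 and 786 CPM in Eµ-PRMT5 and at 328, 633, 234 and 336 CPM in Eµ-TCL1 spleens. The gap lay between 633 and 776 CPM, and the log2 fold change was 1.29 ± 0.38 (SE; adjusted p = 0.131, edgeR). Hspa8, the constitutive HSP70, was measured at 2785, 2669, 2761, 2278 and 1975 CPM against 1181, 1571, 1224 and 1313 CPM. It is the member whose Eµ-PRMT5 values were closest to each other in proportion, and its log2 fold change was 0.89 ± 0.30 (SE; adjusted p = 0.167, edgeR). Ppid, the cyclophilin cochaperone of HSP90, was a low gene, at 62.6, 59.8, 56.9, 44.9 and 40.4 CPM against 24.2, 26.8, 20.5 and 18.7 CPM. Its log2 fold change was 1.19 ± 0.20 (SE; adjusted p = 0.0929, edgeR), and only 0.0329% of all genes had a smaller p.

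Hsp90ab1, Hspd1 and Hspe1 overlapped between the groups. Hsp90ab1 ranged from 3187 to 5608 CPM in Eµ-PRMT5 and from 2305 to 4136 CPM in Eµ-TCL1 B cells, with a log2 fold change of 0.40 ± 0.36 (SE; adjusted p = 0.591, edgeR). The mitochondrial pair was similar, with 0.47 ± 0.31 (SE) for Hspd1 and 0.55 ± 0.44 (SE) for Hspe1. These intervals do not show that the levels were alike.

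Several measurements moved with these differences, and their part in them was not tested. Age at sampling is not known for these mice and was not among them. With sex as a covariate no member was called, and the log2 fold change was 3.95 for Hspa1a and 3.11 for Hspa1b. Without Eµ-PRMT5 spleen 4, edgeR called 3 members (Ppid, Hsph1 and Hspa1a) among 410 genes, where the full fit called 1 gene. Calls thus rose over all genes and not in the members alone. Without spleen 5 edgeR called Ppid. Without spleens 2 and 4 together, a pair chosen after seeing the data, edgeR called Ppid (adjusted p = 0.0490). For these last 2 fits the number of all genes called is not given here. The 4 erythroid markers, which are globin genes, summed to 1.36 to 376 CPM (median 2.19) in Eµ-PRMT5 and to 25.8 to 630 CPM (median 59.5) in Eµ-TCL1 B cells. A list of 6 cell cycle genes summed to 21.6 to 832 CPM (median 38.4) in Eµ-PRMT5 and to 32.2 to 407 CPM (median 101) in Eµ-TCL1 B cells. None of these 6 had an unadjusted p under 0.05. Transcripts of at least 2000 bases also shifted between B cells of the spleens. Their median deviation on the log2 scale was 0.18, 0.14, 0.19, -0.40 and 0 in Eµ-PRMT5 spleens 1 to 5. In Eµ-TCL1 spleens 1 to 4 it was -0.17, 0.014, -0.12 and -0.066. A list of 13 immediate early genes summed to 2118 to 9468 CPM in Eµ-PRMT5 and to 1538 to 3139 CPM in Eµ-TCL1 B cells, and 7 of the 13 had an unadjusted p under 0.05, all higher. Barcodes with at most 100 UMIs, which hold free RNA and debris, carried 28.8 to 304 CPM of Hspa1a in Eµ-PRMT5 and 48.2 to 108 CPM in Eµ-TCL1 spleens, which exceeded the B cells themselves in 3 of the 4 Eµ-TCL1 spleens.

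**Figure D1:**
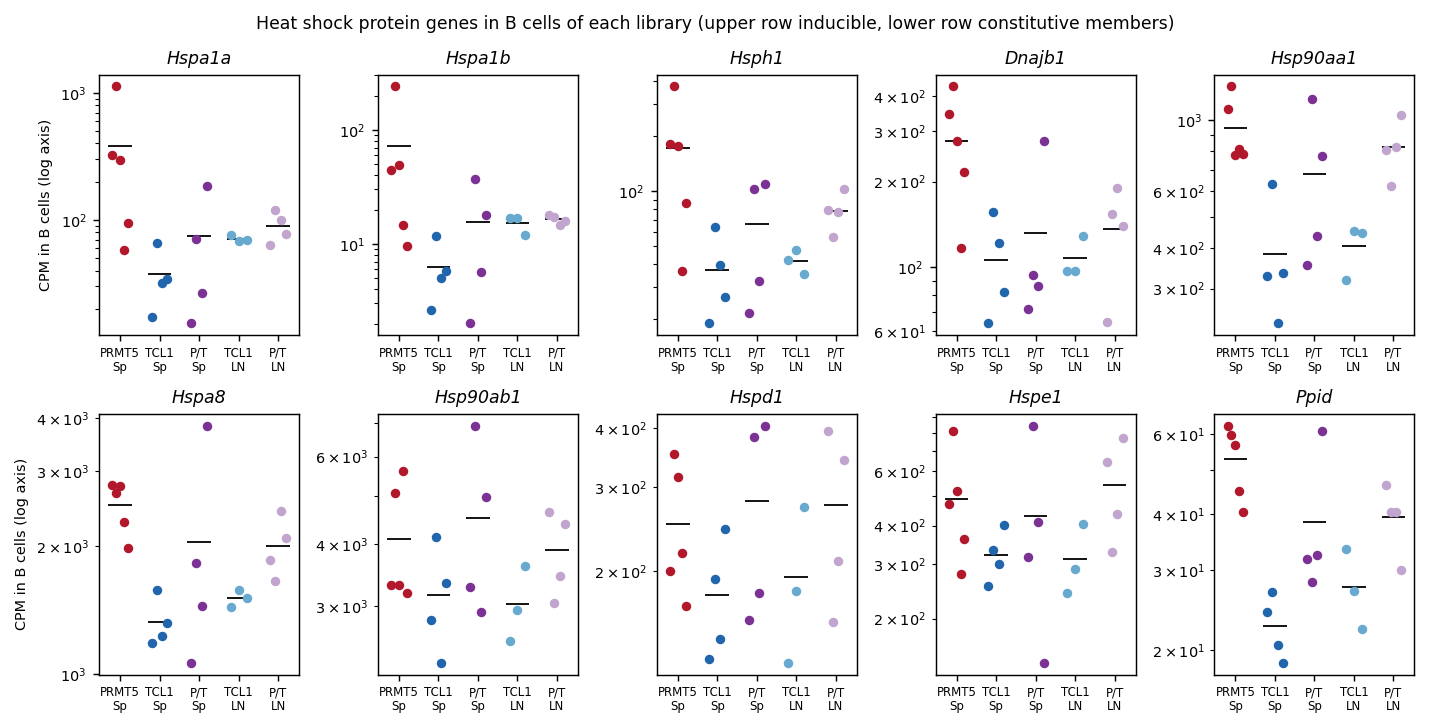
CPM of each member in B cells (log axis) by group, with 1 point for each library and a line at the mean (Sp, spleen; LN, lymph node; P/T, Eµ-PRMT5/TCL1). The upper row holds the inducible and the lower row the constitutive members; Hsp90aa1, Hspa8 and Ppid are the 3 whose Eµ-PRMT5 spleens all lie above the Eµ-TCL1 spleens, and Hspa1a and Hspa1b show the widest spread.

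With PRMT5 added to TCL1 the fitted differences from Eµ-TCL1 were smaller in value than with PRMT5 alone for 8 of the 10 members, and slightly larger for Hsp90ab1 and Hspd1. The Eµ-PRMT5/TCL1 and Eµ-PRMT5 comparisons use the same 4 Eµ-TCL1 spleens, so their differences are not independent. All 10 members had a positive fitted difference of Eµ-PRMT5/TCL1 over Eµ-TCL1 B cells, with a median log2 fold change of 0.59 against -0.01 over all genes. None was called by edgeR or DESeq2, where edgeR called 0 and DESeq2 27 of 12162 genes (0.222%), and 1 member, Ppid, had an unadjusted edgeR p under 0.05 where 1.81% of all genes were higher at that level. Ppid was measured at 31.7, 28.3, 32.3 and 60.9 CPM in Eµ-PRMT5/TCL1 B cells, all above the Eµ-TCL1 maximum of 26.8 CPM, and 2.69% of all genes were higher without overlap. Its log2 fold change was 0.63 ± 0.21 (SE; adjusted p = 0.874, edgeR).

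The 4 Eµ-PRMT5/TCL1 spleens split among themselves. Hsp90aa1 was measured at 355, 1158, 437 and 771 CPM and Hspa8 at 1062, 1821, 1441 and 3833 CPM in B cells of Eµ-PRMT5/TCL1 spleens 1 to 4, so spleens 2 and 4 were high and spleens 1 and 3 were within or under the Eµ-TCL1 range. Spleen 2 was also the highest of all 13 spleens for Hsp90ab1, at 6925 CPM, and for Hspe1, at 843 CPM. Spleen 4 was the highest for Hspa8 and Hspd1 (405 CPM) and the lowest for Hspe1 (144 CPM), although Hspd1 and Hspe1 start from the shared stretch shown above. This is the library with few ribosomal protein UMIs and low short transcripts. The lymph node of the same mouse, Eµ-PRMT5/TCL1 lymph node 1, had 394 CPM of Hspd1 and 641 CPM of Hspe1.

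Against Eµ-PRMT5 spleens, Eµ-PRMT5/TCL1 B cells had 5 members with an unadjusted edgeR p under 0.05, all lower, where 5.51% of all genes were lower at that level. These were Hspa1a (log2 fold change -2.45 ± 0.85, SE), Hspa1b (-2.21 ± 0.96), Hsph1 (-1.41 ± 0.60), Dnajb1 (-1.17 ± 0.40) and Ppid (-0.56 ± 0.20). The size of the first 2 rested on single libraries: without Eµ-PRMT5 spleen 2 Hspa1a was at -1.49 and Hspa1b at -0.97, without Eµ-PRMT5/TCL1 spleen 4 Hspa1a was at -3.26, and without Eµ-PRMT5/TCL1 spleen 2 Hspa1b was at -3.17. None was called (adjusted p from 0.436 to 0.989 over the members; edgeR called 0 genes), and none was called by DESeq2, which called 1.26% of all genes. The groups overlapped for every member, where 2.35% of all genes did not overlap in either direction. The 13 immediate early genes had a median log2 fold change of -0.80, and 1 of them was lower at an unadjusted p under 0.05. Erythroid markers summed to a median of 11.2 CPM in Eµ-PRMT5/TCL1 and 2.19 CPM in Eµ-PRMT5 B cells, with overlap. The part of these lists was not tested.

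The transgenes are directed to B cells, and T cells of the same spleens were compared next. Hspa1b was called higher in Eµ-PRMT5 than in Eµ-TCL1 T cells (log2 fold change 3.33 ± 0.47, SE; adjusted p = 0.0260, edgeR), 1 of 2 genes called higher among 10841 (0.0184%). Of the 10 members, 9 had an unadjusted p under 0.05, all higher, where 3.87% of all genes were higher at that level, and 7 members were higher without overlap, where 1.27% of all genes were. The median log2 fold change was 0.88 against -0.01 over all genes, with 1.32 for the inducible and 0.59 for the constitutive set. DESeq2 called 4 members (Hspa1a, Hspa1b, Hsph1 and Hsp90aa1) where it called 0.221% of all genes higher.

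In T cells Hspa1b was measured at 22.8, 43.6, 28.1, 10.5 and 6.80 CPM in Eµ-PRMT5 spleens and at 1.72, 1.81, 2.41 and 2.88 CPM in Eµ-TCL1 spleens. Every Eµ-PRMT5 value exceeded every Eµ-TCL1 value, and the counts were low, with 6 to 282 UMIs in an Eµ-PRMT5 and 6 to 21 in an Eµ-TCL1 spleen. In the barcodes with at most 100 UMIs Hspa1b was above its T cell level in all 13 spleens, at 9.93 to 87.2 CPM (median 43.4) in Eµ-PRMT5 and 8.63 to 18.8 CPM (median 16.6) in Eµ-TCL1, and the part of this free RNA in the T cell difference was not tested. Hspa1a did not overlap either, at 109, 381, 172, 96.5 and 19.1 CPM against 15.7, 12.1, 6.88 and 6.34 CPM, with a log2 fold change of 3.85 ± 0.84 (SE; adjusted p = 0.348, edgeR). Here spleen 5 was the lowest Eµ-PRMT5 spleen, close to the 15.7 CPM of Eµ-TCL1 spleen 1.

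Hsph1 was measured at 114, 165, 103, 70.2 and 65.0 CPM in Eµ-PRMT5 T cells against 30.9, 48.1, 41.7 and 43.2 CPM. The groups did not overlap, as for Hsp90aa1, which ranged from 525 to 843 CPM against 241 to 392 CPM. The log2 fold changes were 1.32 ± 0.31 (SE) for Hsph1 and 1.10 ± 0.23 (SE) for Hsp90aa1, both short of the threshold in edgeR (adjusted p of 0.543 and 0.339). Dnajb1, Hspa8 and Hspd1 were the other members without overlap, with Hspa8 at 2679 to 3139.9 against 1676 to 2364 CPM, Dnajb1 at 146 to 186 against 64.8 to 98.6 CPM and Hspd1 at 145 to 247 against 102 to 138 CPM.

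The log2 fold change of Hspa1b in T cells lay between 2.86 and 3.59 over all 16 alternatives, but the call was lost with stricter cell calling (adjusted p = 0.197), with sex as a covariate (adjusted p = 0.0932) and in 7 of the 9 fits that left out 1 spleen, all but those without Eµ-PRMT5 spleen 4 or 5. The 13 immediate early genes summed to 1927 to 3402 CPM in Eµ-PRMT5 and to 995.3 to 1468 CPM in Eµ-TCL1 T cells, without overlap, and 9 of the 13 had an unadjusted p under 0.05, all higher, 1 of them called. Markers of other cells also moved with the groups. The 5 B cell check markers summed to 4.12 to 15.8 CPM (median 5.98) in Eµ-PRMT5 and to 1.80 to 6.05 CPM (median 3.26) in Eµ-TCL1 T cells, and the highest value, in spleen 4, was 11.8% of the B cell level of that spleen. The 4 erythroid markers summed to 0 to 41.3 CPM in Eµ-PRMT5 and to 13 to 501 CPM in Eµ-TCL1 T cells. The part of these lists in the result was not tested.

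In myeloid cells the same contrast gave 2 members with an unadjusted p under 0.05, Hspa1a (log2 fold change 1.91 ± 0.86, SE) and Hsp90aa1 (1.07 ± 0.40), where 1.96% of all genes were higher at that level, and neither edgeR (0 genes) nor DESeq2 (1 gene, 0.0102%) called a member. The Hspa1a value was 1.28 without Eµ-PRMT5 spleen 5 and 2.59 without Eµ-TCL1 spleen 3. Hspa1a was measured at 56.9, 308, 176, 137 and 749 CPM in Eµ-PRMT5 and at 18.6, 0, 145 and 113 CPM in Eµ-TCL1 myeloid cells, where the 0 came from 47 cells and allows up to 7.18 CPM (3 counts). The 13 immediate early genes summed to 1548 to 5723 CPM in Eµ-PRMT5 and to 1314 to 2190 CPM in Eµ-TCL1 myeloid cells, 6 of them had an unadjusted p under 0.05, all higher, and their part in the result was not tested. Spleen 5, the lowest Eµ-PRMT5 spleen for Hspa1a in T cells, was the highest in myeloid cells, where its value rested on 43 cells. By these values the order of spleens was not the same across cell classes. Eµ-PRMT5/TCL1 T cells had 3 members with an unadjusted p under 0.05 (Hsp90aa1, Hspd1 and Ppid, all higher, where 4.19% of all genes were) and no call by edgeR, which called 0 genes, or by DESeq2, which called 0.0184%. Hsp90aa1 was the 1 member higher without overlap, where 2% of all genes were. In the same T cells 2 of 6 cell cycle genes (list median log2 fold change 2.1) and 4 of 13 immediate early genes (0.77) were higher at an unadjusted p under 0.05, and their part was not tested.

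**Figure D2:**
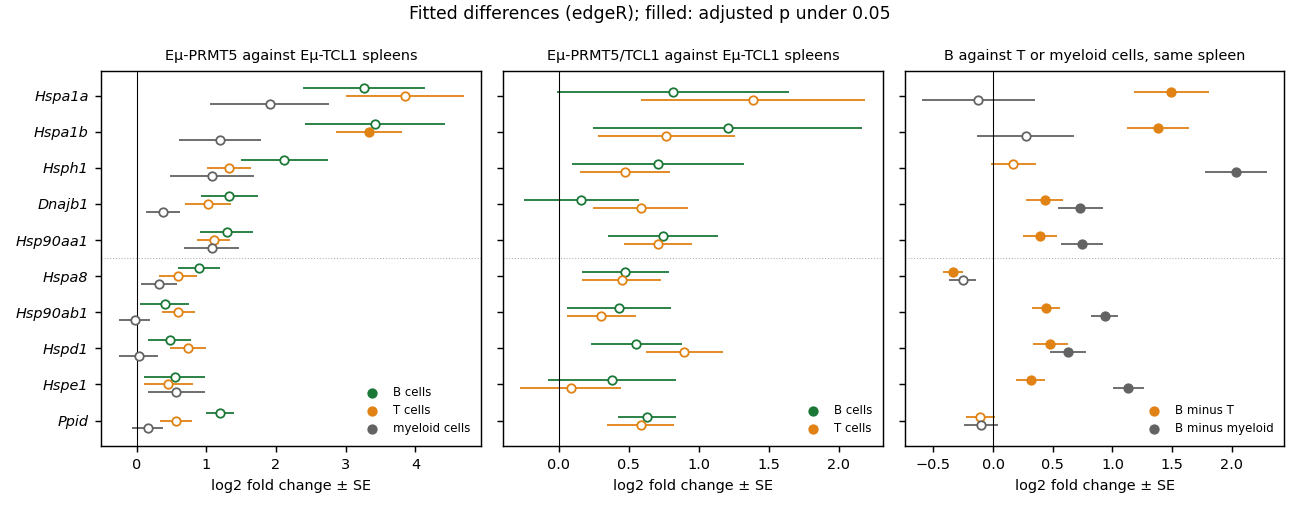
Fitted log2 fold change with its standard error for each member, for Eµ-PRMT5 (left) and Eµ-PRMT5/TCL1 (middle) against Eµ-TCL1 spleens by cell class, and for B against T or myeloid cells of the same spleens (right); filled points have an adjusted p under 0.05. Hspa1b in T cells is the filled point of the left panel, the middle panel has none, and the right panel has 8 for B against T and 6 for B against myeloid cells.

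Whether a member's Eµ-PRMT5 difference was larger in B than in T cells was tested as an interaction. No member was called, and edgeR called 0 of 12236 genes. Ppid was the 1 member with an unadjusted p under 0.05, in the higher direction, where 4.22% of all genes were, with a difference of differences of 0.61 ± 0.27 (SE) on the log2 scale (adjusted p = 0.582). For Hspa1a it was -0.68 ± 0.75 (SE) and for Hspa1b -0.25 ± 0.63 (SE), and these errors leave room for a difference either way. DESeq2 called 0.441% of all genes and no member.

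**Figure D3:**
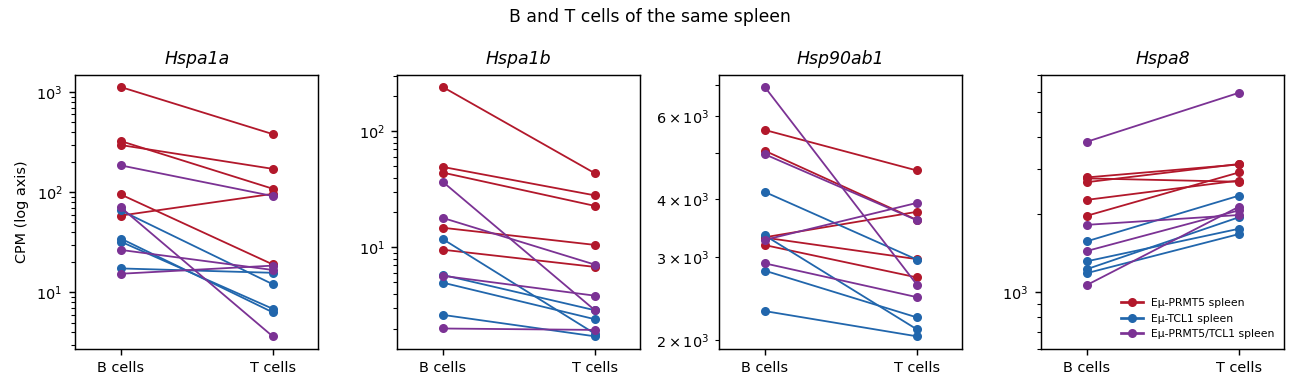
CPM (log axis) of Hspa1a, Hspa1b, Hsp90ab1 and Hspa8 in B and T cells, with 1 line for each of the 13 spleens, coloured by group. The lines fall from B to T cells in all 13 spleens for Hspa1b and in 11 for Hspa1a and Hsp90ab1, and rise in 12 for Hspa8.

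B and T cells of the same spleen share the mouse, the preparation and the library, so their comparison sets cell classes side by side. Over the 13 spleens 8 members were called, 7 higher in B cells (where 31% of all genes were called higher) and Hspa8 lower (27.8%). Of the members, the 2 inducible HSP70 genes had the largest differences, with log2 fold changes of 1.49 ± 0.31 (SE; adjusted p = 0.000702, edgeR) for Hspa1a and 1.38 ± 0.26 (SE; adjusted p = 0.00027, edgeR) for Hspa1b. Of the 13 immediate early genes 9 were called higher and 2 lower in B cells, with a median log2 fold change of 1.497, and their part in these differences was not tested.

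The other members called higher in B cells differed less. The log2 fold changes were 0.48 ± 0.15 (SE) for Hspd1, 0.44 ± 0.12 for Hsp90ab1, 0.43 ± 0.16 for Dnajb1, 0.39 ± 0.14 for Hsp90aa1 and 0.31 ± 0.12 for Hspe1, with adjusted p from 0.00375 to 0.0318 (edgeR). Hspa8 was lower in B cells by fit, at -0.33 ± 0.08 (SE; adjusted p = 0.00311, edgeR), and in 12 of 13 spleens. Hsph1 (0.17 ± 0.19, SE) and Ppid (-0.11 ± 0.12, SE) did not pass the test. Hspa1b was the member higher in B cells in all 13 spleens, where 9.76% of all genes were, so a share of 1 in 10 is close to the background. Hspa1a and Hsp90ab1 were higher in 11, Dnajb1, Hsp90aa1 and Hspd1 in 9, Hspe1 in 8, Hsph1 in 6 and Ppid in 5 spleens. Over the 21 alternatives Hspa1a, Hspa1b, Hspa8, Hsp90ab1 and Hspd1 were called in all, Hsp90aa1 in 17, Dnajb1 in 15 and Hspe1 in 12, and leaving out Eµ-PRMT5 spleen 2 or Eµ-PRMT5/TCL1 spleen 2 ended the calls of those last 3 members together. With 1 spleen left out their log2 fold changes stayed at 0.30 to 0.48 for Hsp90aa1, 0.35 to 0.54 for Dnajb1 and 0.25 to 0.36 for Hspe1.

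Against myeloid cells of the same spleen, 6 members were called, all higher in B cells (where 35.8% of all genes were), and Hsph1, Hsp90ab1 and Hspe1 were so in every spleen (19% of all genes). Hsph1 differed most, by a log2 fold change of 2.04 ± 0.26 (SE; adjusted p = 3.46e-06, edgeR), followed by Hspe1 at 1.13 ± 0.13 and Hsp90ab1 at 0.94 ± 0.11. Hspa1a (-0.12 ± 0.47, SE) and Hspa1b (0.27 ± 0.41, SE) did not pass, and Hspa1a ranged from 0 to 749 CPM in myeloid cells over the spleens. The 0 and the 749 CPM rested on 47 and 43 cells.

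The inducible members can also be set against the constitutive members of the same cells. The log2 ratio of the summed inducible to the summed constitutive CPM in B cells was -2.12 ± 0.61 (SD, n = 5) in Eµ-PRMT5, -3.19 ± 0.31 (SD, n = 4) in Eµ-TCL1 and -3.01 ± 0.28 (SD, n = 4) in Eµ-PRMT5/TCL1 spleens. Inducible transcripts were thus 0.384 of the constitutive sum in Eµ-PRMT5 spleen 2 and 0.123 in spleen 4, and lay between 0.0912 and 0.149 in the Eµ-TCL1 spleens. Spleen 4 overlapped the Eµ-TCL1 range. In T cells the ratio was -2.67 ± 0.23 (SD, n = 5) in Eµ-PRMT5, -3.39 ± 0.22 (SD, n = 4) in Eµ-TCL1 and -3.104 ± 0.19 (SD, n = 4) in Eµ-PRMT5/TCL1 spleens, and Eµ-PRMT5 (lowest -3.03) did not overlap Eµ-TCL1 (highest -3.08), by a narrow gap. In 11 of 13 spleens the ratio was higher in B than in T cells; the exceptions were Eµ-TCL1 spleen 1 and Eµ-PRMT5/TCL1 spleen 1. These ratios sum members chosen with results known and carry no test. Hsp90aa1 was the largest member of the inducible sum in B and in T cells of every spleen, so the ratio leans on it. In B cells it was 328 of 430 CPM in Eµ-TCL1 spleen 1, 812 of 1039 CPM in Eµ-PRMT5 spleen 4 and 1271 of 3442 CPM in Eµ-PRMT5 spleen 2.

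**Figure D4:**
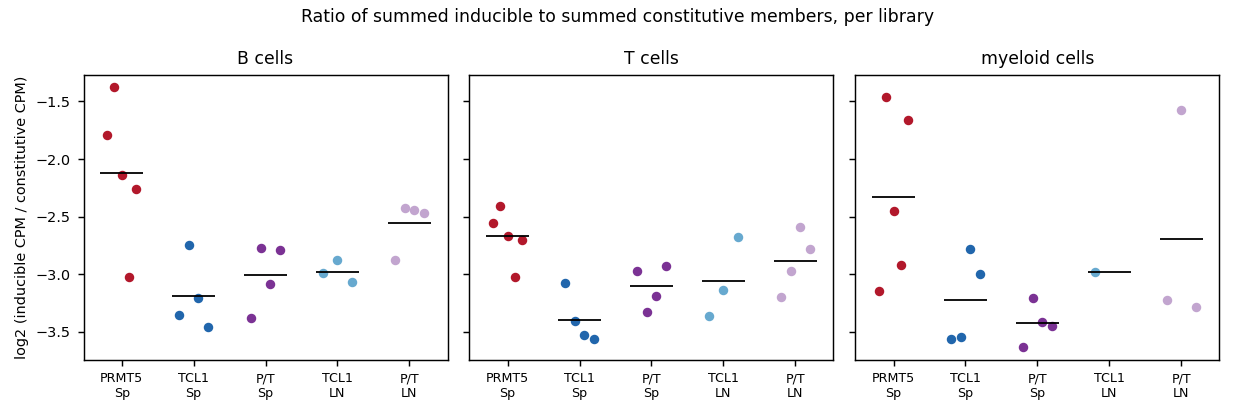
log2 ratio of the summed inducible to the summed constitutive members by group in B, T and myeloid cells, with 1 point for each library with at least 30 cells of the class and a line at the mean (Sp, spleen; LN, lymph node; P/T, Eµ-PRMT5/TCL1). In T cells the Eµ-PRMT5 spleens (lowest -3.03) all lie above the Eµ-TCL1 spleens (highest -3.08), while in B cells Eµ-PRMT5 spleen 4 lies at -3.02, among them.

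Single cells showed how a level was made up. With each B cell thinned to 1000 UMIs, so that depth could not set the share, Hspa1a was detected in 8.85%, 19.4%, 6.34%, 3.82% and 5.14% of B cells of Eµ-PRMT5 spleens 1 to 5. In Eµ-TCL1 spleens 1 to 4 the shares were 0.723%, 2.40%, 0.950% and 1.58%, and in Eµ-PRMT5/TCL1 spleens 0.663%, 3.38%, 1.26% and 6.39%. Every Eµ-PRMT5 share exceeded every Eµ-TCL1 share, although the CPM of Hspa1a in B cells overlapped. In T cells the thinned shares were 1.42% to 6.24% in Eµ-PRMT5 and 0.420% to 0.724% in Eµ-TCL1 spleens. The share of all genes that separated the groups by this measure is not given here for either class. A UMI in a droplet can also come from free RNA, and no background share was estimated, since none of the called classes is known to lack Hspa1a. In the barcodes with at most 100 UMIs Hspa1a was at 203, 304, 207, 60.2 and 28.8 CPM in Eµ-PRMT5 spleens 1 to 5, which in spleen 4 was the level of its B cells (58.6 CPM). The part of free RNA in these shares was not tested. Every kept cell had at least 1000 UMIs, and the median B cell had 4403 to 17649.5 UMIs in Eµ-PRMT5 and 5933.5 to 10075 in Eµ-TCL1 spleens. Without thinning the shares were 16.2%, 31.7%, 10.4%, 12.7% and 11.6% in Eµ-PRMT5 and 2.32% to 4.57% in Eµ-TCL1 spleens. In Eµ-PRMT5 spleen 2, 312 B cells held 398 thinned Hspa1a UMIs, 65 of them in 1 cell.

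B cells of the same spleen with and without a thinned Hspa1a UMI were compared for the other 9 members, as a description without a test, since the cells were chosen by a member. The 2 classes come from 1 library, so genotype, sex and preparation are the same. Of the 9 members, 7 were higher in the Hspa1a-positive B cells in all 13 spleens, where 0.954% of all 12157 genes were. The median log2 difference over the spleens, with 1 CPM added, was 6.08 for Hspa1b, 3.1 for Hsph1, 3.09 for Dnajb1, 1.75 for Hsp90aa1, 1.75 for Hspe1, 1.71 for Hspa8 and 0.69 for Hsp90ab1. Hspd1 (1.17) and Ppid (0.80) were higher in 12 of 13 spleens. By thinned UMIs per cell, the measure used for T cells below, Hspd1 was higher in 12 and Ppid in 10 spleens. The median over all genes was -0.15. In Eµ-TCL1 spleen 1 the 1942 B cells held 36 thinned Hspa1a UMIs, so the positive cells were few. Genes of low level can lack a UMI in so few cells, so the share over all genes is not matched for level. Hspa1b detection in the Hspa1a-positive cells can include reads of Hspa1a assigned to its copy.

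By median, the difference was steepest for Hspa1b, Hsph1 and Dnajb1 and shallowest for the abundant Hsp90ab1. Dnajb1 was detected in a median of 61.5% of Hspa1a-positive and 9.51% of Hspa1a-negative B cells, and Hsph1 in 29.4% and 3.67%. For Hsp90ab1 the medians were 98.2% and 90.4%. Hspa1a itself reached 968 to 5213 CPM in the positive cells of Eµ-PRMT5 spleens, 1223 to 2664 CPM in those of Eµ-TCL1 spleens and 1966 to 2291 CPM in those of Eµ-PRMT5/TCL1 spleens. Having 1 UMI among 1000 sets a floor to these levels in every group, so they are not compared between groups. In T cells only 6 spleens had at least 10 positive cells. In these, Dnajb1, Hsph1, Hsp90aa1, Hspe1, Hspa8, Hsp90ab1, Hspd1 and Ppid had more thinned UMIs per cell in positive cells in all 6, and Hspa1b in 5. The share of all genes higher in all 6 is not given here. Agreement over 6 spleens is easier to reach than over the larger number used for B cells.

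**Figure D5:**
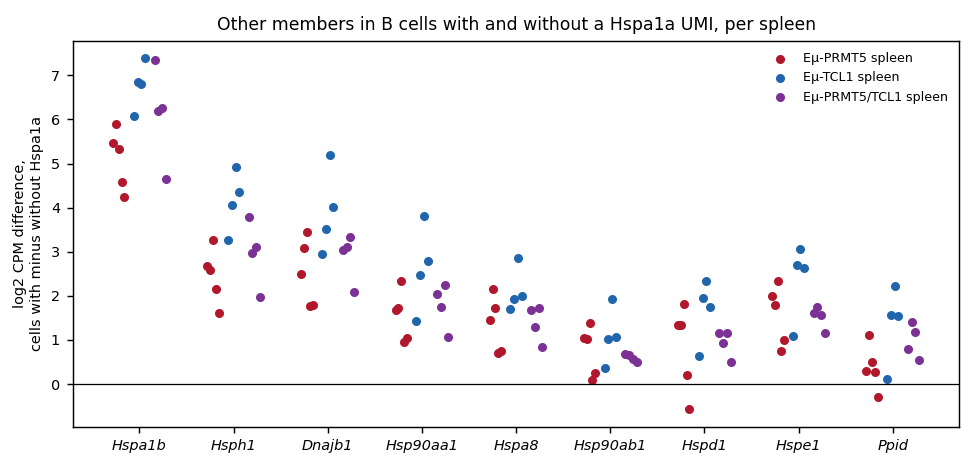
log2 difference in CPM (1 CPM added) between B cells with and without a thinned Hspa1a UMI for the other 9 members, with 1 point for each of the 13 spleens, coloured by group. Hspa1b lies between 4.24 and 7.39, and Hspa1b, Hsph1, Dnajb1, Hsp90aa1, Hspe1, Hspa8 and Hsp90ab1 lie above 0 in all 13 spleens.

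The group difference was also read in the B cells without a thinned Hspa1a UMI. These cells were not free of Hspa1a, which before thinning was at 16.2 to 83.3 CPM in Eµ-PRMT5 and 3.84 to 9.75 CPM in Eµ-TCL1 spleens, without overlap. Of the other 9 members 4 were higher without overlap, where 2.43% of all genes were. In these cells Hsp90aa1 ranged from 604 to 906 CPM in Eµ-PRMT5 and from 203 to 572 CPM in Eµ-TCL1 spleens, Hspa8 from 1567 to 2427 and from 1143 to 1475 CPM, Ppid from 40.8 to 61.4 and from 18.3 to 25.6 CPM, and Hspa1b from 4.71 to 17.8 and from 1.08 to 2.50 CPM. None of these 4 overlapped. Hsph1 did overlap, at 32.5 to 185 against 17.3 to 46.4 CPM, as did Dnajb1, at 108 to 247 against 59.2 to 126 CPM.

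Lymph nodes gave the PRMT5/TCL1 comparison in a second tissue. In lymph node B cells all 10 members had a positive fitted difference of Eµ-PRMT5/TCL1 over Eµ-TCL1 (median log2 fold change 0.43 against 0.02 over all genes), and none was called by edgeR, which called 0 of 11635 genes. Hsp90aa1, Hsph1 and Ppid had an unadjusted p under 0.05, where 3.57% of all genes were higher at that level, and Hsp90aa1, Hsph1 and Hspa8 were higher without overlap, where 3.9% of all genes were. The groups also differed without overlap in plasma cell markers, which summed to 919 to 3446 CPM in Eµ-PRMT5/TCL1 and to 4320 to 9517 CPM in Eµ-TCL1 lymph node B cells, and in immunoglobulin transcripts, at 1.28% to 6.72% against 8.30% to 14.1% of UMIs. Their part in the member differences was not tested. Hsp90aa1 was measured at 809, 623, 825 and 1038 CPM in Eµ-PRMT5/TCL1 lymph nodes 1 to 4 and at 319, 454 and 447 CPM in Eµ-TCL1 lymph nodes 1 to 3. Its log2 fold change was 1.01 ± 0.29 (SE; adjusted p = 0.399, edgeR), and it was the 1 member called by DESeq2, which called 0.593% of all genes higher. Hsph1 was measured at 78.9, 56.2, 76.7 and 102 CPM against 42.3, 47.9 and 35.4 CPM, with a log2 fold change of 0.92 ± 0.27 (SE; adjusted p = 0.420, edgeR).

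The 7 lymph nodes were each paired with the spleen of the same mouse. Hspa1a was higher in lymph node than in spleen B cells in 6 of the 7 mice, and its level was even across lymph nodes, from 63.8 to 121 CPM, while the 7 spleens ran from 15.4 to 186 CPM. The log2 fold change of lymph node over spleen was 1.02 ± 0.46 (SE; adjusted p = 0.449, edgeR). Hspa1b had the 1 unadjusted p under 0.05, with 1.08 ± 0.45 (SE; adjusted p = 0.413), where 5.75% of all genes were higher at that level. The edgeR fit called 3 genes (0.0258%) and no member, and DESeq2 called 2.76% of all genes. Erythroid markers in B cells summed to 1.36 to 4.95 CPM in Eµ-TCL1 and to 0.432 to 3.73 CPM in Eµ-PRMT5/TCL1 lymph nodes. In the spleens of these groups they summed to 25.8 to 630 and to 6.16 to 891 CPM. Their part in the tissue difference was not tested.

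The mitochondrial chaperonin genes were also set side by side in the tissues of each mouse. Hspd1 was measured in lymph node and spleen B cells of the same mouse at 128 and 130.4 CPM, 182 and 192 CPM, and 273 and 245 CPM in the 3 Eµ-TCL1 mice. In the 4 Eµ-PRMT5/TCL1 mice the pairs were 394 and 405, 156 and 158, 209.9 and 179, and 342 and 384 CPM. Across these mice Hspd1 ranged from 130.4 to 405 CPM in spleen, and the fitted mean difference between tissues was 0.06 ± 0.11 (SE) on the log2 scale. For Hspe1 the pairs included 328 and 316 CPM, 766 and 843 CPM and, in the mouse of Eµ-PRMT5/TCL1 spleen 4, 641 and 144 CPM.

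The wider chaperone network was read from a list of 68 genes, of which 64 were tested in the Eµ-PRMT5 against Eµ-TCL1 B cell comparison. None was called by edgeR. At an unadjusted p under 0.05, 21 were higher (9.87% of all genes) and 3 lower (7.89% of all genes), with a median log2 fold change of 0.37 against 0.02 over all genes. The higher ones included 5 of the 11 HSP90 cochaperones, 4 of the 7 chaperonin (TRiC) subunits tested, 4 of the 9 other HSP70 family genes and 4 of the 13 J proteins, and neither of the heat shock factors. Dnaja1, a J protein that delivers clients to HSP70, had a log2 fold change of 1.09 ± 0.29 (SE; adjusted p = 0.108, edgeR) and ranged from 243.5 to 626 CPM in Eµ-PRMT5 and from 131 to 315 CPM in Eµ-TCL1 B cells. The groups overlapped. Cct8, a TRiC subunit, ranged from 158 to 206 CPM against 58.2 to 142 CPM without overlap (0.90 ± 0.24, SE; adjusted p = 0.108, edgeR). Dnajb14, a J protein of the endoplasmic reticulum membrane, was lower, at 5.63 to 11.2 against 11.4 to 19.3 CPM (-0.80 ± 0.21, SE; adjusted p = 0.108, edgeR).

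In T cells 10 of the 62 wider genes tested had an unadjusted p under 0.05, all higher (3.87% of all genes), led by Dnajb4, Hspa5 (the endoplasmic reticulum HSP70), Dnajb9, Hspb1 and Hspa9 (the mitochondrial HSP70), and none was called. Between B and T cells of the same spleen 26 of 62 were called higher (31% of all genes) and 7 lower (27.8% of all genes) in B cells, the latter including Dnaja4, Dnajb6, Bag1 and Hsf2. Hspb1 (HSP27), a small heat shock protein, had the largest difference of those named, with a log2 fold change of 4.57 ± 0.62 (SE; adjusted p = 1.12e-05, edgeR).

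Genes with the pattern most like the summed inducible set over B cells of the 13 spleens were sought among 12148 genes. This was done by Pearson correlation of log2 CPM, as a description. They were Gtf2f1 (r = 0.91), a subunit of a general transcription factor, Wdr43 (0.89), Dnaja1 (0.88), Gpr137c (0.88) and Slc5a3 (0.88). Dnaja1 is the 1 of these 5 on the wider chaperone list. Gpr137c (0.389 to 3.62 CPM) and Slc5a3 (0.584 to 11.2 CPM) were low over the spleens, so their r is less certain. Without Eµ-PRMT5 spleen 2, which was high for the set, r was 0.88, 0.85, 0.93, 0.82 and 0.82. The points share libraries and depth, and a correlation over 13 spleens in 3 groups also carries the group difference. The summed set also leans on Hsp90aa1, its most abundant member.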

How the data were processed

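The authors deposited unfiltered UMI count matrices (10x Genomics 3′ chemistry) from Cell Ranger, one per library, with no normalization. The study's methods and the submitters' processing notes name version 2.0.1 and the matrix headers version 3.1.0; the notes name GRCm38. Barcodes were kept as cells if they reached the UMI total of the 99th percentile of the 3000 largest barcodes divided by 10, had 200 or more genes and no more than 10% mitochondrial UMIs, and Scrublet (scanpy 1.11.5) removed 0 to 298 barcodes per library, so doublets may remain. A cell was B, T or myeloid with at least 2 UMIs of its calling list (for B cells Cd79a, Cd79b, Ms4a1 and a further gene that is not reported here; Cd3d, Cd3e and Cd3g; Lyz2, Csf3r, Csf1r, Cd14 and Mpo) and at most 1 UMI of the other lists for every 5 of its own. Counts were summed per class and library; sums of under 30 cells were left out. Libraries shared at most 1.31% of the cell barcodes of the smaller library. Sums were fitted with edgeR 4.0.16 (TMM, filterByExpr, quasi-likelihood test, Benjamini-Hochberg over all genes tested; called under 0.05). Spleen groups of one class shared a fit, and the library or mouse was a block where classes or tissues of the same mouse were compared. DESeq2 1.42.0, RLE scaling, no filter, stricter calling (at least 5 UMIs), no cycling cells, no immunoglobulin genes, no B cells with Sdc1, a replicate block, sex (read from Xist and Y-linked transcripts) as a covariate and leaving out each library were alternatives, and the fits were tested on simulated data. The p-values measure spread between mice. Each SE given with an edgeR log2 fold change is its absolute value divided by the square root of the test's F statistic. The replicate numbers did not pair the spleens (correlations of deviations from -0.09 to 0.20). The members and lists were chosen with earlier results of these data known. The genes named outside the members were the 5 of the wider list with the smallest p per comparison and the 5 with the highest correlation, apart from those said to be chosen otherwise, and Bag1 and Hsf2 were chosen after their values were seen.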

Additional observations from a re-analysis of the deposited data

Results flagged for a closer look

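In 10 results 1 library lay far from the others of its group, out of 121 groups of 4 or 5 libraries (a measure in a cell class and group) examined by Dixon's criterion. For values that follow a normal distribution, chance alone gives about 1 in 20 such groups. The member levels were examined as CPM, which are skewed for some members, so that rate need not hold here. In Eµ-PRMT5 spleen 2 B cells, Hspa1a stood at 1126 CPM against 58.6 to 325 CPM in the other Eµ-PRMT5 spleens, and Hspa1b at 240.5 CPM against 9.56 to 49.3 CPM. In Eµ-PRMT5/TCL1 spleen 4, Dnajb1 (278 against 71.4 to 93.8 CPM) and Ppid (60.9 against 28.3 to 32.3 CPM) were high in B cells. In T cells of that spleen Hspa1a (91.8 against 3.65 to 18.5 CPM), Hsph1 (134 against 37.6 to 45.8 CPM) and Hspa8 (5942 against 1988 to 2140.2 CPM) were high. It is the library in which ribosomal protein genes took the smallest share of UMIs, and 5 of the 10 results came from it. Hsph1 in T cells of Eµ-PRMT5/TCL1 lymph node 3 was 105.9 CPM against 65.4 to 71.8 CPM. The log2 ratio of inducible to constitutive members in B cells of Eµ-PRMT5/TCL1 lymph node 1 was -2.87 against -2.47 to -2.43. Hsp90ab1 in myeloid cells of Eµ-TCL1 spleen 2 was low, at 1548 CPM against 1761 to 1800.3 CPM.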

How the results depend on the processing

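The number of members called in Eµ-PRMT5 against Eµ-TCL1 B cells was 0 in the reported fit, 7 by DESeq2, 1 without Eµ-PRMT5 spleens 2 and 4 (chosen after seeing the data) and 0 to 3 with 1 spleen left out. In T cells it was 1, and 4 by DESeq2, 0 with stricter cell calling, 0 with sex as a covariate and 0 to 1 with 1 spleen left out. In lymph node B cells it was 0, and 1 by DESeq2. Between B and T cells it was 8, and 5 to 8 with 1 spleen left out. The cause of these changes was not tested. The replicate block gave 0 calls of members in Eµ-PRMT5 against Eµ-TCL1 B cells and kept the Hspa1b call in T cells (adjusted p = 0.0497); since the numbers do not pair mice, it is given as a limit only. Fitted log2 differences near 0 changed sign as follows. In Eµ-PRMT5/TCL1 against Eµ-PRMT5 B cells Hsp90ab1 was -0.051 and Hspd1 -0.094 with the replicate block, -0.031 and -0.064 with stricter calling, and -0.027 and -0.0001487 without cycling cells. With sex as a covariate Hspe1 was -0.14 in B and -0.078 in T cells of Eµ-PRMT5/TCL1 against Eµ-TCL1 spleens, and Dnajb1 was -0.047 in lymph nodes, where Hspa1a was -0.040 and Hspa1b -0.31 without cycling cells. Without Eµ-PRMT5 spleens 2 and 4, Hsp90ab1 was -0.037 in Eµ-PRMT5 against Eµ-TCL1 B cells. In myeloid cells of that contrast Hsp90ab1 was 0.0012 with RLE scaling and Hspd1 -0.066 with stricter calling. For B against myeloid cells, Hspa1a was 0.057 by DESeq2 and 0.027 with stricter calling, Hspa1b -0.067 without cycling cells, and Ppid 0.031 with stricter calling and 0.26 without cycling cells. The interaction for Hspe1 was 0.060 with stricter calling. With 1 library left out, Hspe1 ran from -0.20 to 0.69 and Dnajb1 from -0.35 to 0.38 in Eµ-PRMT5/TCL1 against Eµ-TCL1 B cells, Hspe1 from -0.12 to 0.38 in T cells, and Hspa1b from -0.012 to 0.23 in lymph nodes. Against Eµ-PRMT5 B cells, Hsp90ab1 ran from -0.29 to 0.29, Hspe1 from -0.74 to 0.14 and Hspd1 from -0.15 to 0.27. In myeloid cells Hsp90ab1 ran from -0.098 to 0.081 and Hspd1 from -0.085 to 0.20, and Hspa1a in B against myeloid cells from -0.34 to 0.12. In the interaction Hspe1 ran from -0.19 to 0.13 and Hspa1b from -0.66 to 0.098, and in lymph node against spleen Hspe1 ran from -0.0044 to 0.39. The PRMT5 minus TCL1 difference in the log2 ratio of inducible to constitutive members in B cells was 1.07 and stayed between 0.77 and 1.33 under the alternatives run. Over the members and the alternatives that left out no single library, 904 differences kept direction and side of the threshold, 12 newly passed it, 4 no longer did and 20 changed sign. Depth limits Hspa1a, Hspa1b and Hsph1 in the smaller classes: in a spleen, T cell sums held as few as 2 UMIs of Hspa1b, and myeloid sums as few as 0 of Hspa1a, 0 of Hspa1b and 1 of Hsph1.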

Other observations

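Beyond the members, B cells with a thinned Hspa1a UMI differed from the other B cells of the same spleen in further genes, given as values with no test. On the wider chaperone list 9 of 64 genes (14.1%) were higher in all 13 spleens, where 0.954% of all genes, not matched for level, were. Among them were Hspb1, Bag3, Dnaja1, Ahsa1, Cacybp, St13 and Hspa5. Hspb1, a small heat shock protein, had a median log2 difference of 3.72, Bag3, an HSP70 nucleotide exchange factor, of 3.06, and Dnaja1 of 2.03. Of 13 immediate early genes 11 were higher in all 13 spleens (84.6%), led by Fos (3.54), with Dusp1 at 2.39 and Fosb at 2.21. None of 6 cell cycle genes was. Among the genes chosen after their values were seen, Klf4 (2.42) and Ppp1r15a (2.25), which lets translation resume after stress, were also higher in all 13 spleens.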
